A study of Mus musculus with 6 samples.

Results

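Lysosomal membrane glycoproteins, ion channels and transporters were followed in mouse bone marrow-derived macrophages with less Lamtor5. The set was chosen by gene name and holds 39 of the 55401 genes in the deposited table. All 39 were found under 1 identifier each, and all passed the filter on low counts. The series has 3 libraries labelled Lamtor5 knockdown and 3 labelled WT. Both groups are macrophages grown from bone marrow with M-CSF, the macrophage growth factor. The study's design text names the mice HBXIPΔLysM: HBXIP is another name for Lamtor5, and LysM is the Lyz2 locus, whose promoter commonly drives Cre in myeloid cells, so a culture can hold cells that kept the gene. Strain, age and sex are not given in the labels, nor is it said whether libraries came from separate animals, and the p-values cover nothing but the spread among these 6 libraries, which may be technical.

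The lysosome digests material delivered by endocytosis, phagocytosis and autophagy, and its limiting membrane does more than hold the enzymes in. Heavily glycosylated proteins such as Lamp1 and Lamp2 line it. Channels and chloride exchangers carry the ions that go with acidification and calcium release, and transporters return amino acids, nucleosides, peptides, metals and lipids to the cytosol. Lamtor5 belongs to Ragulator, which docks the Rag GTPases and mTORC1 on this same membrane. Macrophages are rich in lysosomes, and Cd68, one of the set, is a standard macrophage marker.

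Estimated counts summed to 75.8 to 81.3 M (1e6) in the knockdown libraries and 82.5 to 83.2 M in WT. Lamtor5 itself had 25.5, 27.1 and 24.8 FPKM in the knockdown libraries, against 55.9, 54.5 and 56.2 FPKM in WT. FPKM is the level per kilobase of transcript and per 1e6 fragments. Knockdown replicate 3 stood apart at Lyz2, the LysM locus, with 73.6 FPKM, against 11356 and 10650 FPKM in knockdown replicates 1 and 2 and 22454 to 29379 FPKM in WT. The macrophage markers were present in every library, but 7 of the 8 listed were lower in the knockdown. The sum over the 8 was 425 to 571 FPKM in the knockdown, against 931 to 1182 FPKM in WT. The remaining marker, Mertk, went the other way, with 7.29, 5.78 and 8.98 FPKM in the knockdown against 5.09, 3.33 and 1.87 FPKM in WT. Its log2 fold change of 1.14 did not pass (edgeR adjusted p = 0.0922). Of the 4 monocyte markers Ccr2 was lower (7.78 to 19.2 FPKM in the knockdown against 19.7 to 26.7 FPKM in WT, summed), and of the 7 neutrophil markers Mpo was higher and Ltf lower (68.9 to 119 FPKM in the knockdown against 91.3 to 138 FPKM in WT, summed). None of the 4 B cell markers passed, with sums of 1.10 to 5.28 FPKM in the knockdown against 5.50 to 7.92 FPKM in WT, nor did any of the 5 fibroblast and stroma markers (0.689 to 5.22 FPKM in the knockdown against 1.67 to 6 FPKM in WT). Of the 5 erythroid and megakaryocyte markers Hba-a1 was higher, with 3.02, 4.15 and 0.546 FPKM in the knockdown against 0.342, 0.314 and 0.448 FPKM in WT. The 5 summed to 38.4 to 142 FPKM in the knockdown against 49.1 to 52.8 FPKM in WT. Most of that sum was Pf4 and Itga2b, which did not pass. Kit, a gene of mast cells and progenitors that had been listed with the dendritic cell markers, was higher, with 7.37, 5.77 and 15.4 FPKM in the knockdown against 1.41, 1.94 and 2.98 FPKM in WT. The dendritic cell markers Flt3, Zbtb46, Cd209a, Xcr1 and Siglech were each at or below 0.779 FPKM in the knockdown libraries and 0.669 FPKM in WT, and none passed. All 8 markers of cycling cells were lower too (19.2 to 40.3 FPKM in the knockdown, against 104 to 228 FPKM in WT, summed). Of 8 mast cell, basophil and eosinophil markers 2 were higher. The 8 summed to 6.33 to 14.8 FPKM in the knockdown against 2.02 to 4.15 FPKM in WT. Of 9 osteoclast markers 1, Itgb3, was higher, with 88.5, 80.5 and 58.2 FPKM in the knockdown against 23.9, 23.1 and 23.5 FPKM in WT. The 9 summed to 143 to 168 FPKM in the knockdown against 103 to 120.4 FPKM in WT, with Calcr at 0 in all libraries. That difference came from Itgb3, and no other osteoclast marker passed. Dcstamp, Nfatc1, Ctsk and Mmp9 had log2 fold changes below 0 (-2.3, -0.27, -0.12 and -0.31), and Acp5 had 0.33. The 4 T cell markers summed to at most 0.219 FPKM in knockdown libraries and 0.104 FPKM in WT. The part of these shifts in the results below was not tested. In bulk RNA, a change in the number of cells of a type and a change of RNA per cell cannot be told apart.

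In edgeR's quasi-likelihood test with Benjamini-Hochberg adjustment over 18164 genes, 12 of the 39 rose and 1, the channel gene Tpcn1, fell, at an adjusted p under 0.05, so that 33.3% of the set was called. Over all genes tested, 4.87% were higher, 6.46% lower and 11.3% called in either direction. Many of those are expressed less than the set. Among 11516 genes with a mean of at least 1 FPKM, limma on log2(FPKM + 1) called 17.1%. In that fit the same 12 genes of the set rose and 2 fell, of 37 tested. The genes that rose belong to the glycoproteins (Cd63, Cd68, Tmem106b, Laptm4b), the channels (Mcoln1, Tmem175), a chloride exchanger's partner (Ostm1) and the transporters (Lmbrd1, Ctns, Slc15a3, Slc29a3, Mfsd12). The log2 fold change was above 0 for 33 of the 39 and below 0 for 6, from -0.59 to 1.07. Its median was 0.26, against 0.02 over all genes tested. The FPKM of the groups did not overlap for 18 of the 39 in the higher direction and for 4 in the lower direction, where 16.3% and 21.3% of all tested genes did so (37.6% in either direction). Summed over the 39 genes, the level was 4444, 4288 and 4825 FPKM in the knockdown libraries and 3672, 3399 and 3349.7 FPKM in WT, so every knockdown library lay above every WT library. Lamp1, Cd68 and Laptm5 made up 67.2% to 69.4% of the sum in the knockdown and 66.2% to 68.0% in WT.

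The number of calls changed with the library that was left out, in the set and over all tested genes. A fit with 1 library fewer also has less to estimate the spread from, and the part of that was not tested. Of all tested genes, 11.3% were called with the 6 libraries and 0% without WT replicate 2. The share was 1.98% without knockdown replicate 1, 3.29% without WT replicate 3 and 4.15% without knockdown replicate 3. It was 6% without knockdown replicate 2 and 12.3% without WT replicate 1. In edgeR, none of the 39 passed without WT replicate 2 (15 higher and 2 lower at an unadjusted p under 0.05), 3 were higher and none lower without knockdown replicate 1 (15 and 2 unadjusted), and 3 were higher and none lower without WT replicate 3 (16 and 2 unadjusted). Without knockdown replicate 3, the library with little Lyz2, 8 were higher and 1 lower, and Tmem106b, Ostm1, Lmbrd1 and Slc15a3 were the calls lost. Mcoln1 and Slc29a3 passed in each of the other settings tried, and missed only without WT replicate 2 (adjusted p = 0.0644 and 0.0652 in edgeR). The median log2 fold change of the set stayed between 0.27 and 0.35 when any library was left out.

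**Figure D1:**
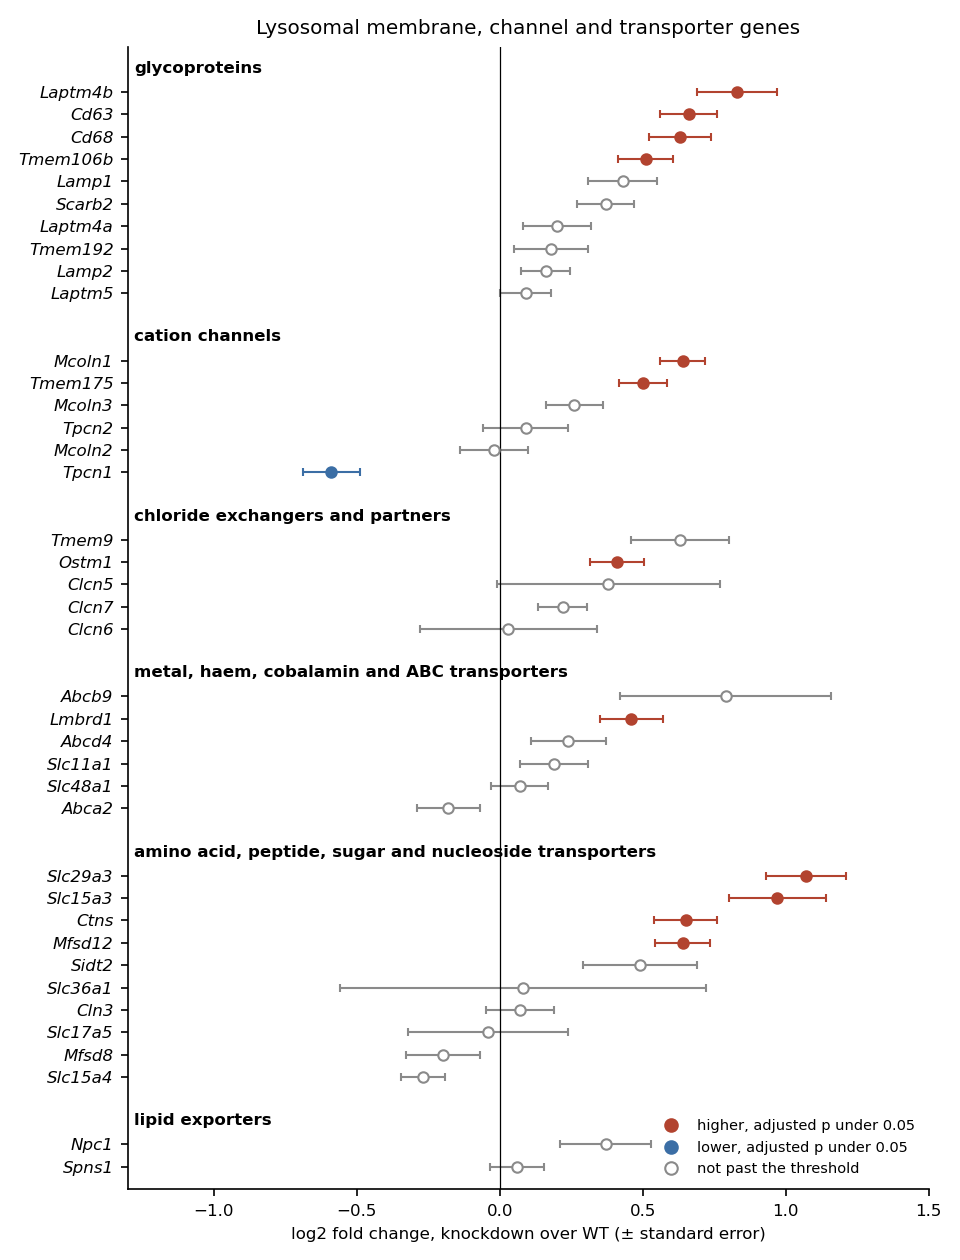
Log2 fold change (knockdown over WT) of each of the 39 genes with its standard error, grouped by role; filled points passed an adjusted p of 0.05. The glycoproteins all lie above 0, Tpcn1 is the filled point below 0 at -0.59, and Slc29a3 lies highest at 1.07.

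Among the glycoproteins and other structural proteins of the membrane, 4 of 10 rose and none fell, with a median log2 fold change of 0.40. Cd63, a tetraspanin of late endosomes, lysosomes and exosomes (chromosome 10, 128900989 to 128912822, GRCm38), had 309, 335 and 346 FPKM in the knockdown, against 238, 211 and 199 FPKM in WT. Its groups were well apart, with a log2 fold change of 0.66 (SE 0.10, edgeR adjusted p = 0.0162). Cd68, or macrosialin, a Lamp relative of macrophages (chromosome 11, 69664213 to 69666153), was the most abundant of the 39, with 1402, 1273 and 1571 FPKM in knockdown libraries and 938, 930.2 and 971 FPKM in WT. It rose by 0.63 on the log2 scale (SE 0.11, edgeR adjusted p = 0.0198), whereas the surface markers of macrophages Adgre1 and Csf1r had edgeR log2 fold changes of -0.93 and -1.18 (adjusted p = 0.0236 and 0.0173). Mertk, of the same marker list, had a value of 1.14 that did not pass (edgeR adjusted p = 0.0922).

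Laptm4b, a membrane-spanning protein of late endosomes and lysosomes (chromosome 15, 34238028 to 34284302), had 15.8, 14.1 and 11.3 FPKM in the knockdown, against 7.87, 7.59 and 8.50 FPKM in WT. That was the largest rise of this group, 0.83 on the log2 scale (SE 0.14, edgeR adjusted p = 0.0192). Its relatives Laptm4a and Laptm5 (a gene of blood cells) were far more abundant (means of 131 and 452 FPKM in the knockdown, against 118 and 438 FPKM in WT), and their groups overlapped, with log2 fold changes of 0.20 and 0.09 that did not pass. Tmem106b, a lysosomal glycoprotein linked to frontotemporal dementia in humans (chromosome 6, 13069759 to 13081652), had 16.2, 16.4 and 17.4 FPKM in knockdown libraries and 13.0, 12.3 and 11.0 FPKM in WT, a log2 fold change of 0.51 (SE 0.096, edgeR adjusted p = 0.0229).

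The classic membrane glycoproteins did not pass. Lamp1 had 1181, 1146 and 1333 FPKM in the knockdown, against 1027, 922 and 866 FPKM in WT. The groups did not overlap, but the log2 fold change of 0.43 (SE 0.12) had an edgeR adjusted p of 0.0680, and it passed with DESeq2 and without WT replicate 1. Scarb2, or LIMP-2, the sorting receptor of glucocerebrosidase, was close to it at 0.37 (adjusted p = 0.0622; 27.1 to 30.9 FPKM in knockdown libraries and 22.2 to 25.3 FPKM in WT). Lamp2, which is also the receptor of chaperone-mediated autophagy, was at 72.7 to 78.9 FPKM in the knockdown, against 65.1 to 72.9 FPKM in WT, with a log2 fold change of 0.16 (adjusted p = 0.260). For Tmem192, a membrane protein often tagged to purify lysosomes, the value was 0.18 (adjusted p = 0.399).

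The cation channels went both ways. Mcoln1 encodes TRPML1, the channel that releases lysosomal calcium (chromosome 8, 3500457 to 3515232). It had 17.3, 16.6 and 17.2 FPKM in knockdown libraries and 11.7, 10.9 and 11.1 FPKM in WT. The libraries of each group lay close together and the groups well apart, with a log2 fold change of 0.64 (SE 0.079, edgeR adjusted p = 0.0113). Its paralogs lie side by side on chromosome 3. Mcoln2 had a log2 fold change of -0.02 and Mcoln3 of 0.26 (adjusted p = 0.941 and 0.147), and the groups of both overlapped. Of the FPKM summed over the mucolipin genes, Mcoln1 held 24.7% to 27.1% in the knockdown and 18.7% to 20.7% in WT, and Mcoln2 26.8% to 28.7% in the knockdown and 30.2% to 35.4% in WT. Mcoln3 remained the most abundant mucolipin in every library, with 46.2% to 48.6% in the knockdown and 45.0% to 49.1% in WT.

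Tpcn1 encodes a sodium and calcium channel of endosomes and lysosomes (chromosome 5, 120534153 to 120588673, minus strand). It had 12.1, 12.3 and 9.77 FPKM in the knockdown, against 16.9, 17.5 and 18.9 FPKM in WT. All 3 knockdown libraries were below all WT libraries, and it fell by 0.59 on the log2 scale (log2 fold change -0.59, SE 0.10, edgeR adjusted p = 0.0187). The transcript 2510016D11Rik overlaps it by 985 bases on the same strand, with counts equal to 7.35% of those of Tpcn1, and a fitted change of -0.70 (log2, adjusted p = 0.0284), so reads may be split between them. The paralog Tpcn2 was lower expressed, at 4.02 to 4.48 FPKM in knockdown libraries and 3.58 to 5.05 FPKM in WT, and did not pass (0.09, adjusted p = 0.722). Tpcn1 thus held 68.6% to 75.0% of the summed Tpcn1 and Tpcn2 level in the knockdown and 78.9% to 82.6% in WT. Tmem175, a potassium and proton channel of the lysosome that is linked to Parkinson disease in humans (chromosome 5, 108629770 to 108648782), had 6.21, 6.07 and 5.74 FPKM in the knockdown, against 4.39, 4.32 and 4.47 FPKM in WT. It rose by 0.50 on the log2 scale (SE 0.084, edgeR adjusted p = 0.0180). It overlaps Dgkq on the other strand, whose counts were 62.0% of its own and which had a log2 fold change of 0.03, and whether the counting used strand is not given in the sources used here.

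**Figure D2:**
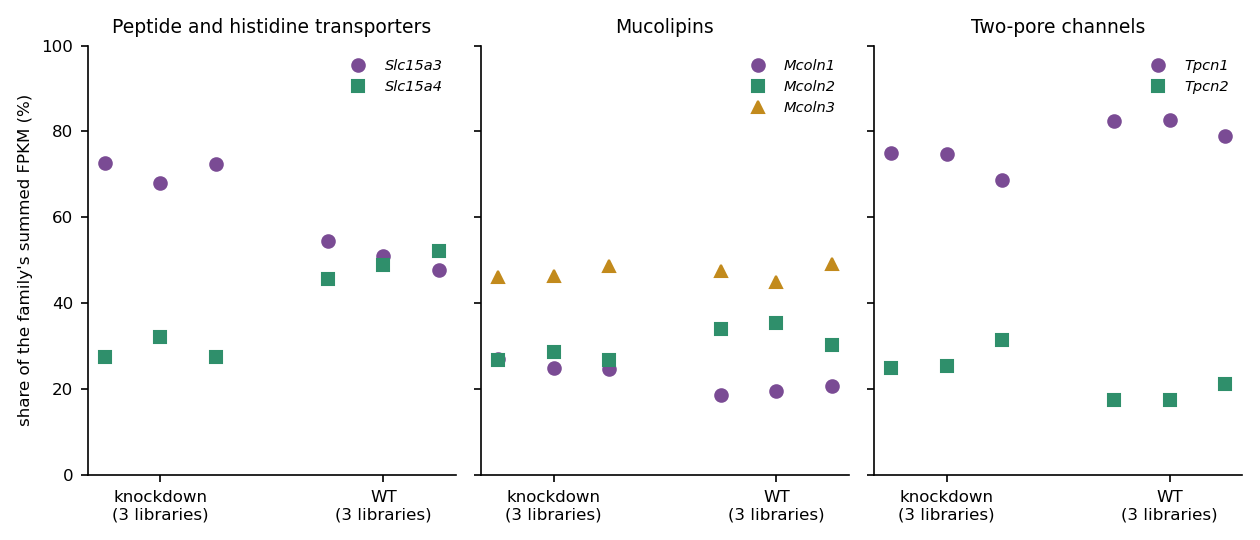
Share (%) of each gene in the summed FPKM of its family, one point per library, knockdown at the left of each panel. Slc15a3 lies at 67.9% to 72.6% in the knockdown and 47.8% to 54.4% in WT; Mcoln1 and Tpcn2 also hold a larger share in each knockdown library than in any WT library.

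Of the chloride exchangers and their partners, 1 of 5 rose. Ostm1, the partner subunit without which the exchanger Clcn7 is unstable (chromosome 10, 42583822 to 42702459), had 17.7, 17.5 and 19.7 FPKM in knockdown libraries and 15.1, 14.0 and 13.7 FPKM in WT. The log2 fold change was 0.41 (SE 0.093, edgeR adjusted p = 0.0382), and the call was lost without any one library but WT replicate 1. Clcn7, the main chloride exchanger of lysosomes, was also higher in each knockdown library, with 64.1, 61.1 and 65.5 FPKM against 59.5, 55.2 and 54.6 FPKM in WT, but did not pass (0.22, adjusted p = 0.136). Tmem9, a partner of endosomal chloride exchangers, had 7.31, 10.2 and 11.5 FPKM in the knockdown, against 6.15, 6.77 and 6.54 FPKM in WT, with a wide spread in the knockdown and a log2 fold change of 0.63 (SE 0.17, edgeR adjusted p = 0.0562). Clcn5 and Clcn6, exchangers of endosomes and late endosomes, were at 1.16 to 3.72 FPKM and varied within the groups.

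The transporters for amino acids, peptides, sugars and nucleosides held the largest increases. Of these 10 genes 4 rose and none fell, with a median log2 fold change of 0.29. Slc29a3 encodes the lysosomal nucleoside exporter, whose loss causes a histiocytosis, an accumulation of macrophages, in humans (chromosome 10, 60712072 to 60752782). It had 36.5, 35.0 and 42.9 FPKM in knockdown libraries and 21.5, 17.6 and 17.1 FPKM in WT. It was the only one of the 39 with a fitted fold above 2 (2.10; log2 fold change 1.07, SE 0.14, edgeR adjusted p = 0.0116). Ctns, the cystine exporter that is mutated in cystinosis (chromosome 11, 73183596 to 73199042), had 22.6, 24.6 and 29.4 FPKM in the knockdown, against 17.1, 17.2 and 16.1 FPKM in WT (0.65, SE 0.11, edgeR adjusted p = 0.0199). Mfsd12, needed for cysteine import into lysosomes and melanosomes (chromosome 10, 81357491 to 81366225), had 109, 102 and 122 FPKM in knockdown libraries and 71.5, 73.1 and 76.1 FPKM in WT (0.64, SE 0.096, edgeR adjusted p = 0.0149). The genes for moving cystine out and cysteine in thus both rose, by about the same amount. Fzr1 overlaps the end of Mfsd12 by 4 bases and fell (log2 fold change -0.87, adjusted p = 0.0178).

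The proton-coupled transporters of histidine and small peptides were unequal. Slc15a3 (chromosome 19, 10839727 to 10859362) had 36.7, 27.7 and 35.3 FPKM in the knockdown, against 20.4, 17.0 and 15.3 FPKM in WT. It rose by 0.97 on the log2 scale (SE 0.17, edgeR adjusted p = 0.0196). Slc15a4, which also anchors an adaptor of endosomal Toll-like receptor signalling, had 13.8, 13.1 and 13.4 FPKM in knockdown libraries and 17.1, 16.4 and 16.7 FPKM in WT. These groups did not overlap either, in the other direction, and the log2 fold change of -0.27 (SE 0.077) had an edgeR adjusted p of 0.0690, while it passed in limma on log2(FPKM + 1). Slc15a3 was 67.9% to 72.6% of their summed level in the knockdown and 47.8% to 54.4% in WT. The end of Slc15a3 overlaps Tmem132a on the other strand, which had 23.9% as many counts and a log2 fold change of 0.50 (adjusted p = 0.0680).

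**Figure D3:**
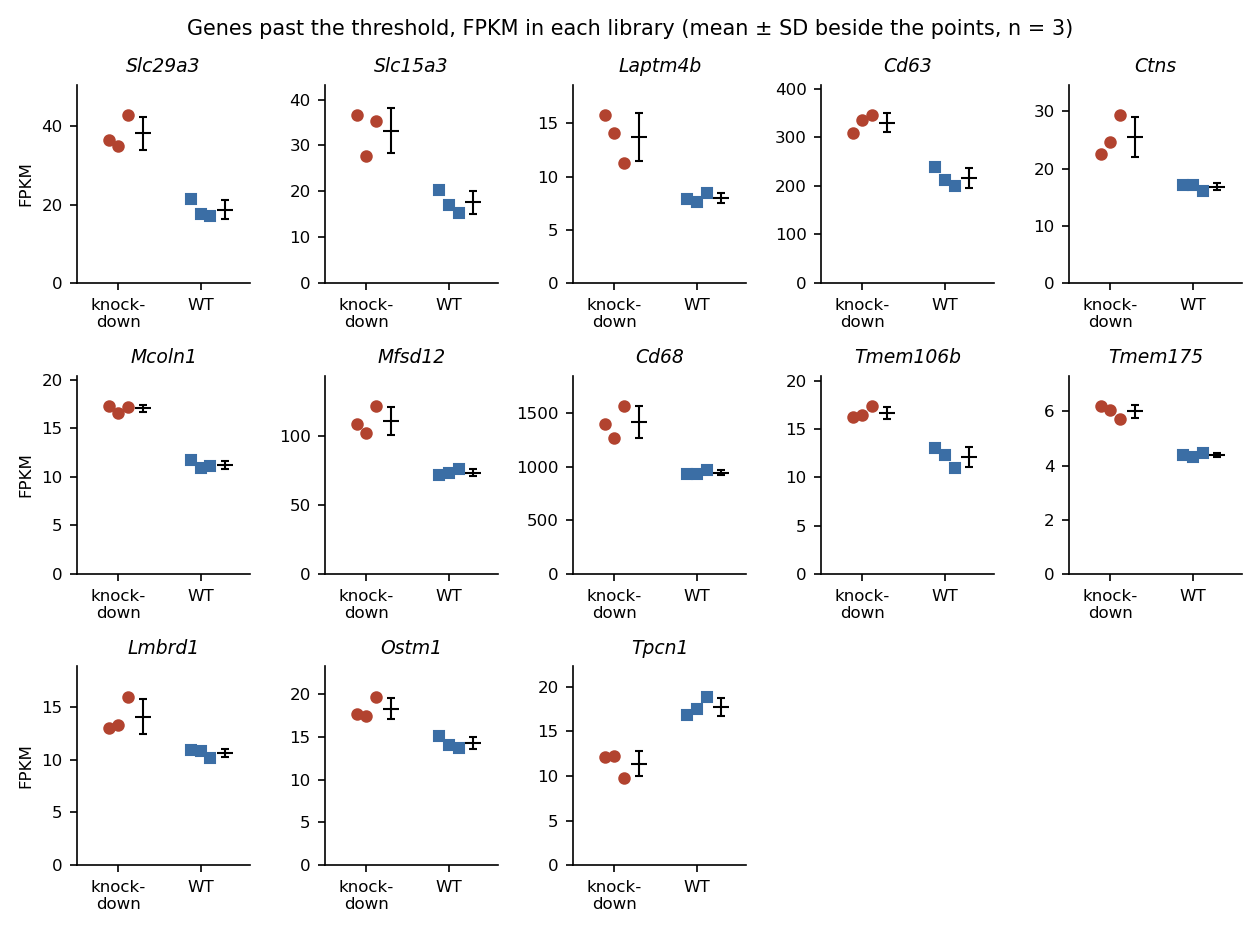
FPKM in each library for the 13 genes past the threshold, in order of log2 fold change, with the mean and SD of 3 libraries beside the points; knockdown circles stand left of WT squares and each axis starts at 0. In all 13 panels the groups are apart, and Tpcn1 is the gene with lower knockdown values (9.77 to 12.3 FPKM against 16.9 to 18.9 FPKM in WT).

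The other transporters of this group did not pass. Sidt2, which takes RNA and DNA into lysosomes, had 36.0, 34.5 and 36.5 FPKM in the knockdown, against 33.8, 25.1 and 19.6 FPKM in WT, so that the spread lay in WT (0.49, adjusted p = 0.151). Cln3, mutated in juvenile Batten disease, had a log2 fold change of 0.07 (11.2 to 14.2 FPKM in knockdown libraries and 11.9 to 13.4 FPKM in WT), and it overlaps Apobr, which had more counts than Cln3 and a log2 fold change of -0.52 (adjusted p = 0.0129). Mfsd8, the gene of another form of Batten disease, was under 1 FPKM in each library and had a value of -0.20 (adjusted p = 0.370). Slc17a5, the sialic acid exporter, and Slc36a1, an exporter of small amino acids, had fold changes near 0 and a large spread within groups.

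Of the transporters of metals, haem and cobalamin and the ABC transporters, 1 of 6 rose. Lmbrd1, which is needed for the release of cobalamin (vitamin B12) from lysosomes (chromosome 1, 24678630 to 24766301), had 13.0, 13.3 and 16.0 FPKM in the knockdown, against 10.9, 10.8 and 10.2 FPKM in WT. Its log2 fold change was 0.46 (SE 0.11, edgeR adjusted p = 0.0415), the weakest call of the set, and it was lost when any 1 library was left out. Abcd4, which works with it in cobalamin release, had 1.74 to 2.04 FPKM in knockdown libraries and 1.48 to 1.75 FPKM in WT (0.24, adjusted p = 0.252). Slc48a1, which exports haem from red cells taken up by macrophages, and Slc11a1, or Nramp1, which withdraws iron and manganese from the phagosome, were abundant: their means were 143 and 108 FPKM in the knockdown, against 141 and 98.1 FPKM in WT. Both had overlapping groups and log2 fold changes of 0.07 and 0.19 (adjusted p = 0.673 and 0.354). Abca2, a lipid transporter, had a value of -0.18 (adjusted p = 0.311). Abcb9, a peptide transporter, was at 0.398 to 0.533 FPKM in knockdown libraries and 0.178 to 0.434 FPKM in WT. These groups overlapped, the highest WT library was 2.44 times the lowest, and the log2 fold change of 0.79 (SE 0.37, edgeR adjusted p = 0.210) passed only without WT replicate 1 (1.25, adjusted p = 0.0486) among the alternatives that tested it.

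The lipid exporters did not pass. Npc1, which hands cholesterol out of the lysosome, had 40.7, 35.6 and 41.0 FPKM in the knockdown, against 34.2, 24.6 and 34.9 FPKM in WT (0.37, SE 0.16, edgeR adjusted p = 0.172). The knockdown libraries lay above all WT libraries, but by little at replicate 2 of the knockdown. Npc2, the soluble partner of Npc1, was like it, at 238 to 288 FPKM in knockdown libraries and 175 to 220.2 FPKM in WT (0.48, adjusted p = 0.0649). Spns1, an exporter of lysophospholipids, was level, with 14.1 to 15.0 FPKM in the knockdown, against 13.1 to 16.0 FPKM in WT (0.06, adjusted p = 0.732).

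A few of the genes varied more within a group than between groups. Of the 37 with a mean of at least 1 FPKM, 6 had a highest library over 1.5 times the lowest within a group (16.2%, against 32.0% of the other tested genes at that level). Slc36a1 had 21.6, 5.47 and 20.1 FPKM in knockdown libraries and 20.3, 20.7 and 5.43 FPKM in WT. It sat at one of 2 levels in each group, and its log2 fold change of 0.08 has an SE of 0.64. Slc17a5 had 8.60, 18.8 and 9.77 FPKM in the knockdown, against 14.7, 13.5 and 10.8 FPKM in WT, with knockdown replicate 2 highest. Clcn5 was low in WT replicate 3 alone, at 1.16 FPKM, and otherwise at 3.15 to 3.72 FPKM in knockdown libraries and 3.35 and 3.69 FPKM in WT. Clcn6 ran from 1.92 to 3.11 FPKM in knockdown libraries and from 1.85 to 3.72 FPKM in WT. The SEs of the log2 fold change were 0.28 for Slc17a5, 0.39 for Clcn5 and 0.31 for Clcn6, against 0.079 for Mcoln1.

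**Figure D4:**
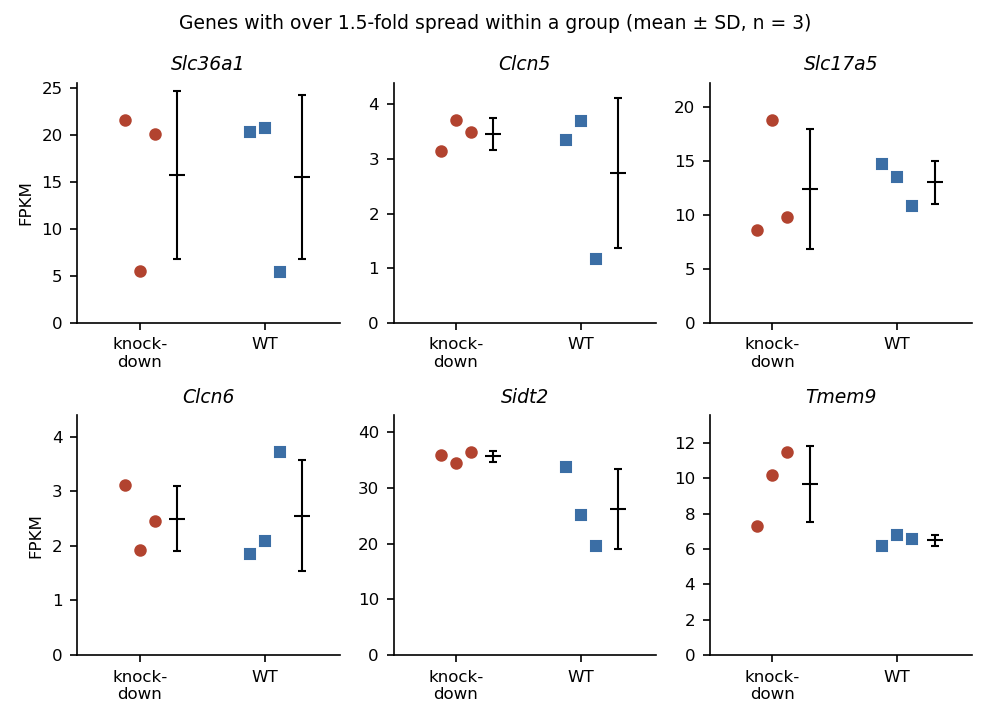
FPKM in each library for the 6 genes with a spread over 1.5-fold within a group, with mean and SD (n = 3) beside the points. Slc36a1 falls to about 5 FPKM in knockdown replicate 2 and WT replicate 3 and stays at 20.1 to 21.6 FPKM in the other libraries.

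A list of 26 further lysosomal genes held mostly genes of the membrane, with the soluble Npc2 among them. Of these, 23 were tested (Vamp7 was not analysed here, and Lamp3 and Slc7a14 were under the filter). Among the 23, 2 rose and 5 fell, so that 30.4% were called, against 33.3% of the set and 11.3% of all tested genes. Their median log2 fold change was -0.06. Cd164, or endolyn, rose by 0.64, and Glmp, the partner of the transporter Mfsd1, by 0.54 (edgeR adjusted p = 0.0257 and 0.0244). Those that fell were Dram1, an autophagy regulator (-0.74), Hgsnat, which acetylates heparan sulfate (-0.66), the sugar transporter gene Slc2a6 (-0.65), the channel gene Tmem63a (-0.43) and the intramembrane protease gene Sppl2a (-0.40), with adjusted p from 0.0196 to 0.0291. None of the 4 MiT/TFE factors, which bind lysosomal promoters, passed: Mitf had a log2 fold change of -0.31, Tfe3 of -0.37, Tfec of -0.55 and Tfeb of 0.12 (edgeR adjusted p = 0.0604, 0.0902, 0.214 and 0.772).

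**Figure D5:**
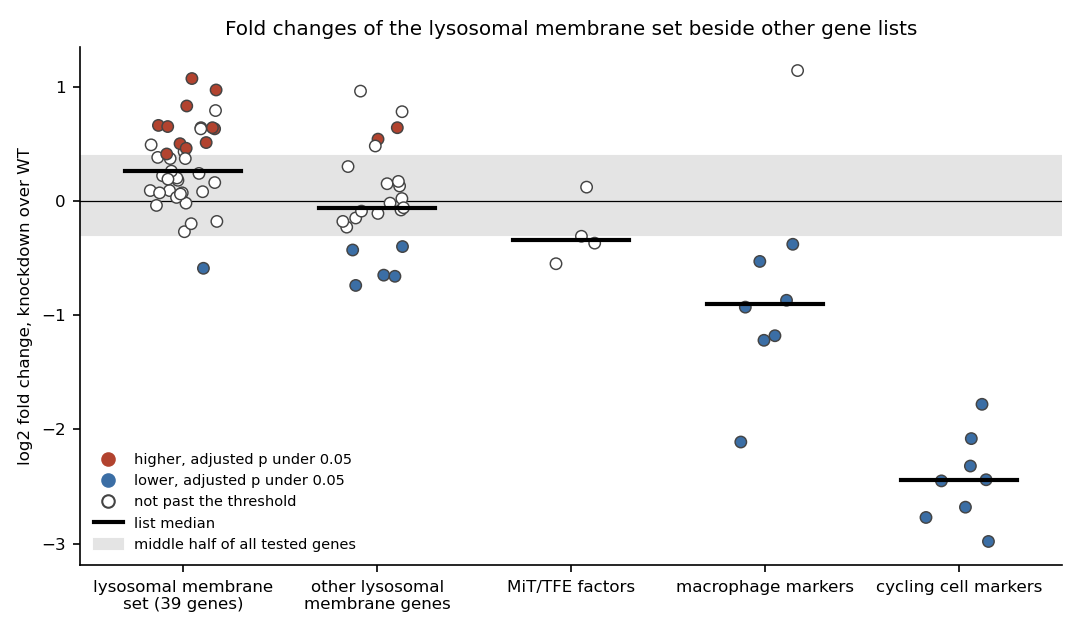
Log2 fold change (knockdown over WT) of single genes in the set, in the list of further lysosomal genes (labelled other lysosomal membrane genes, Npc2 included), in the MiT/TFE factors and in macrophage and cycling cell markers; bars are list medians and the grey band is the interquartile range of all tested genes (-0.30 to 0.39). The set has its median at 0.26 and the further lysosomal genes at -0.06, while the macrophage and cycling markers lie mostly below 0.

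The promoters were read because MiT/TFE factors bind a palindrome built on the E-box hexamer CACGTG. A RefSeq promoter sequence (GRCm38.p6, 250 bases before to 50 after a start site) was at hand for 33 of the 39 genes. The letters TCACGTGA were found in 5 (15.2%, against 1.97% of 11818 tested genes with a sequence and 0.974% of 32851 promoter sequences), and CACGTG, which those letters contain, in 7 (21.2%, against 11.2% of tested genes and 7.15% of all sequences). The 5 with TCACGTGA were Clcn6, Clcn7, Cln3, Mcoln1 and Slc36a1, whereas Lamp1 and Mcoln2 held the hexamer only. Each motif reads the same on both strands. Of the 10 genes that rose and had a promoter sequence, Mcoln1 alone held CACGTG. The other 6 with it, Lamp1, Clcn6, Clcn7, Cln3, Mcoln2 and Slc36a1, were among the 23 with a sequence that did not pass the expression test. Of all 634 tested genes that rose and had a sequence, 15.8% held CACGTG and 3.94% held TCACGTGA. With so few genes, 1 of 10 cannot be told from that share. A match is a description of the letters, not of binding.

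Stretches from 150 bases before to 20 bases after a start site are given for 5 of the genes with the hexamer and for Slc29a3, which rose most and has none, 5′ to 3′ on the gene's strand, with CACGTG in capitals. They lie at chr8:3500369-3500538 (Mcoln1, plus), chr8:13159011-13159180 (Lamp1, plus), chr17:25133241-25133410 (Clcn7, plus), chr11:55204190-55204359 (Slc36a1, plus), chr7:126583217-126583386 (Cln3, minus) and chr10:60752763-60752932 (Slc29a3, minus). With the first transcribed base as 1, the hexamer begins at -71 and -45 in Mcoln1, at -61, -45, -28 and -15 in Lamp1, at -15 and 8 in Clcn7, at -31 and -3 in Slc36a1 and at -149 and -121 in Cln3. Clcn7 and Cln3 each have another start site without CACGTG (chr17:25136481-25136650 and chr7:126585798-126585967). For Cln3, the stretch without it is the one that covers the gene's annotated 5′ end. For Mcoln1, the start site used (3500519) lies downstream of the gene's annotated 5′ end (3500457). Its hexamer at -45 thus falls inside the annotated gene, and the one at -71 before it.
Mcoln1: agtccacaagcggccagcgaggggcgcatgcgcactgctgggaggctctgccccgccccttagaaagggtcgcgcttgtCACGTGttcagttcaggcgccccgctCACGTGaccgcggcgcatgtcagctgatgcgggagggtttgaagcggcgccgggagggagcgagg
Lamp1: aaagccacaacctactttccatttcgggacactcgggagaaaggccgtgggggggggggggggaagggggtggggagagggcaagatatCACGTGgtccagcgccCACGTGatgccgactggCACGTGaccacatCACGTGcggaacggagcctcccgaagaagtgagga
Clcn7: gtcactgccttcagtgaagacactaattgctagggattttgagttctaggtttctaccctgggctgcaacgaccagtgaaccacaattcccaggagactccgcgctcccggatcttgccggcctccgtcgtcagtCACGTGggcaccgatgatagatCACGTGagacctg
Slc36a1: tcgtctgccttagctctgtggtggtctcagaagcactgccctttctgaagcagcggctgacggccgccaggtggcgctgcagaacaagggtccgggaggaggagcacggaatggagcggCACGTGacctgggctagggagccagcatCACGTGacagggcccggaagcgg
Cln3: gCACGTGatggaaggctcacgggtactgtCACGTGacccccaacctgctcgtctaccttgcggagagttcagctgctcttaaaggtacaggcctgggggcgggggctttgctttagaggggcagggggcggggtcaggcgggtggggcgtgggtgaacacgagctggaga
Slc29a3: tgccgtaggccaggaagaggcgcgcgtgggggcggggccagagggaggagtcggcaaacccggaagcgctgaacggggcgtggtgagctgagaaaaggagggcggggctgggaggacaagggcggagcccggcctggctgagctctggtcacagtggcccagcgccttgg

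The levels of the set placed it among the well expressed genes of these cells. By mean FPKM over both groups, 16 of the 39 were at or above the 90th percentile of tested genes and 3, Abcd4, Mfsd8 and Abcb9, were below the 50th percentile. In the order of level, Cd68 and Lamp1 (means of 1181 and 1079 FPKM) stood far above Laptm5 (445 FPKM) and Cd63 (273 FPKM), and Slc48a1, Laptm4a and Slc11a1 (142, 125 and 103 FPKM) followed with overlapping ranges. In the deposited annotation 31 of the 39 carry the lysosomal membrane term of the Gene Ontology and 17 belong to the KEGG lysosome pathway.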

How the data were processed

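RNA sequencing was done on 3 Lamtor5 knockdown and 3 WT libraries, grouped by the genotype label. The authors trimmed adapters with cutadapt 1.9 (overlap of at least 5, reads of at least 100 bases), per the file headers. GRCm38 (mm10) is the build named in the submitters' processing notes. Aligner, counting program and use of strand were not given in the sources used here. FPKM and estimated counts per gene were deposited by the authors, per the file headers. The estimated counts are whole numbers that sum to 2.95 to 3.01 per read pair kept, so no counting interval was made from them.

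The whole table of estimated counts was fitted in edgeR 4.0.16 under R 4.3.3: filterByExpr with a minimum count of 10, TMM scaling, quasi-likelihood fit, group as the only term, Benjamini-Hochberg adjustment and a threshold of 0.05. The SE is the log2 fold change divided by the square root of F. Levels are deposited FPKM, as mean ± SD or per library. Of the table's identifiers 55141 were in GENCODE M21, and 33 of the 39 genes had the same coordinates there; coordinates of genes are those of the table. The script was tested on simulated data.

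The alternatives were RLE factors, no count filter, DESeq2 1.42.0, limma 3.58.1 on log2(FPKM + 1) or + 0.1 with a minimum mean of 1 FPKM or none, counts divided by 3, a block for the replicate number, and leaving out 1 library at a time. The genes, roles and lists were chosen with earlier results of these data known. Genes named with each library's value were those past the threshold, or with an absolute log2 fold change of at least 0.5 and an unadjusted p under 0.05; Lamp1, Clcn7, Slc15a4, Npc1, Sidt2 and the genes with a large spread were added after their values were seen.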

Additional observations from a re-analysis of the deposited data

How the results depend on the processing

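The number of genes of the set that rose, 12, was the same with RLE factors and in limma with a minimum of 1 FPKM. It was 15 with DESeq2 (Lamp1, Scarb2 and Tmem9 were added) and 14 with counts divided by 3 (Scarb2 and Tmem9). It was 10 without a count filter, 7 in limma without a filter and 5 with the replicate number as a block. It ran from 0 to 16 when single libraries were left out. The number that fell, 1, was 2 in each of the 3 limma fits, where Slc15a4 was added. It was 0 under the replicate block and ran from 0 to 1 with a library left out. With a minimum of 1 FPKM, 37 of the 39 were tested. Over all genes 2058 passed, against 1205 without a count filter, 3641 with DESeq2, 815 in limma without a filter and 728 under the replicate block, and 0 to 2334 with a library left out (0 in edgeR without WT replicate 2, where 4065 genes had an unadjusted p under 0.05). The cause was not tested. The median log2 fold change of the set was 0.20 to 0.35 in all 14 alternatives, and no gene of the set changed sign where it passed. Same-numbered libraries of the 2 groups deviated together at r = 0.04, 0.04 and -0.01, so the numbers are not taken to pair the libraries. Yet 4 of 6 libraries correlated best with their own number, among correlations between groups of -0.07 to 0.04.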

Other observations

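Broader annotations in the deposited table gave the following values, taken up after the results above were seen. Of 99 other tested genes of the KEGG lysosome pathway 22 were higher and 3 lower in the knockdown (25.3% called, against 11.3% of all tested genes), with a median log2 fold change of 0.17. Of 157 other tested genes with the lysosomal membrane term 29 were higher and 10 lower (24.8% called), with a median of 0.13. Of the 12 genes of the set that rose, 8 were highest in knockdown replicate 3 and 4 in knockdown replicate 1, and within WT 7 were highest in replicate 1. The same was not counted over all tested genes, so whether this split is particular to the set is not known.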
